A study of Mus musculus with 12 samples.

Results

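The genes described here are those that encode the proteins of the cytosolic ribosome. They were chosen by name: every non-control probe on the array whose gene symbol was Rpl or Rps followed by a number and at most 1 of the letters a, x, y or l, together with Rplp0, Rplp1, Rplp2 and Rpsa. This gave 78 genes out of 27962 symbols on the array, measured by 130 of its 41174 probes, and each gene was represented by the brightest of its probes. The RNA came from C57MG cells, a mouse mammary epithelial cell line that has long been used as a target of Wnt proteins. Monolayers were moved from serum and insulin to plain DMEM and kept for 24 h with 100 ng/ml recombinant human Rspo2, with 100 ng/ml recombinant mouse Wnt3a, with both proteins at these doses, or with bovine serum albumin (BSA), the carrier, as control. Each of the 4 groups had 3 samples, all from a single cell line, and each sample was hybridised to 1 single-colour array.

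A ribosome joins a small subunit, which holds the messenger RNA and decodes it, to a large subunit, which forms the peptide bond. Ribosomal protein genes are among the most highly expressed genes of any growing cell, and their messengers begin with a terminal oligopyrimidine (TOP) tract, a C followed by an unbroken run of pyrimidines, through which the growth-sensing kinase mTOR controls how much of each messenger is translated. Wnt3a is a secreted ligand of the β-catenin pathway, and Rspo2 belongs to the R-spondins, secreted proteins that strengthen the response of cells to Wnt ligands.

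The TOP tract is a sequence feature for which the genes had not been chosen, and 7 start sites are shown to make it visible, 6 with a tract and 1 without. RefSeq promoter sequence was found for 58 of the 78 genes, with 69 start sites between them. At 13 of these, or 18.8%, a C and at least 4 more pyrimidines stood exactly at the annotated start, against 2.51% of all 32851 start sites in the table, so that most of the genes had none at that exact position. Allowing the tract to begin within 10 bases of the start raised the shares to 52.2% and 30.7%. In each sequence the 10 bases before the start and the 20 bases from the start onward are given 5′ to 3′ on the coding strand of GRCm38.p6, with the tract in capitals. The paralog Rps27l, of which the first annotated start is printed, had no tract at that position.
Rpl14 (chr9:120571507-120571536, + strand): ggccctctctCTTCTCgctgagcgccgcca
Rpl15 (chr14:18270967-18270996, - strand): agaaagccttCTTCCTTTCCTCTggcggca
Rpl28 (chr7:4792955-4792984, + strand): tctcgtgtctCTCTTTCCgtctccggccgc
Rpl38 (chr11:114668570-114668599, + strand): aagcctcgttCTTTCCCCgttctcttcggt
Rps6 (chr4:86857348-86857377, - strand): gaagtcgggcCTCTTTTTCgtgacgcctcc
Rps27 (chr3:90213629-90213658, - strand): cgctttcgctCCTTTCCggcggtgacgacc
Rps27l (chr9:66946076-66946105, + strand): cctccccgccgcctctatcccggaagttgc

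Other promoter motifs were also searched on both strands of the 250 bases before each start. CCGGAAG, a binding sequence of the ETS family, stood in 27.5% of the ribosomal protein promoters and 6.91% of all promoters. The TATA box TATAAA stood in 4.35% and 12.4%, and the E-box CACGTG in 7.25% and 6.02%. The genes with a tract exactly at a start had a median log2 change of 0.37 with Rspo2, 0.52 with Wnt3a and 0.38 with the combination. The genes whose known starts lacked one had medians of 0.31, 0.47 and 0.40. The ranges of the 2 sets overlapped in each comparison, and their difference was not tested.

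The arrays lay on 3 slides that do not separate cleanly from treatment. All 3 BSA samples lay on slide 1 beside Rspo2 replicate 1. The remaining Rspo2 samples shared slide 2 with the first 2 Wnt3a samples. Slide 3 carried the combination samples and the last Wnt3a sample. BSA and the combination therefore shared no slide. The 75th percentile of the intensities, by which every array was scaled, lay between 774 and 1146. Between 51.3% and 64.1% of probes were above background, and the 2 highest shares belonged to BSA replicate 1 and combination replicate 1. These were also the 2 arrays with the lowest slope of the spike-in controls, at 0.854 and 0.884 against 0.929 to 0.965 on the other 10. Transcripts of Krt8, Krt14 and Krt17, keratins of epithelial cells, were above background on all 12 arrays. Cdh1, Cldn7 and Elf5 were above background on none, and 11 of 12 fibroblast and mesenchymal markers were above it on all 12. Of leukocyte, endothelial and adipocyte markers, 3 of 7, 1 of 4 and 1 of 3 were above background on all 12. The summed leukocyte level lay at 5.91 to 6.87 in the BSA group, 6.91 to 7.71 after Rspo2, 5.22 to 5.88 after Wnt3a and 3.56 to 4.08 after the combination. The endothelial sum lay at 2.43 to 2.60 in the BSA group and 1.63 to 1.89 over the treated samples, and the adipocyte sum at 0.486 to 0.565 in the BSA group, 0.671 to 0.770 after Rspo2 and 0.283 to 0.367 after the combination. The summed level of the 13 epithelial markers, relative to the 75th percentile, ranged over 11.2 to 11.5 in the BSA group, 10.7 to 13.3 after Rspo2, 16.3 to 17.9 after Wnt3a and 23.2 to 26.7 after the combination, and the part of these sums in the results below was not tested.

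Ribosomal protein probes are bright, and the scanner read the brightest spots in a separate scan at lower gain whose values were then scaled up. The probes of 72 of the 78 genes were read at low gain on all 12 arrays, Rpl23a on 11 (its spot on BSA replicate 2 was flagged as an outlier and dropped, so its BSA mean rests on 2 samples), and Rpl14, Rpl21, Rpl27a, Rpl31 and Rpl3l on none. No more than 2.81% of all probes were read this way on any array. A set of 655 other detected probes that were also read at low gain on all 12 arrays is given beside the ribosomal protein genes below, since any behaviour of that scan or of bright probes would reach both. No ribosomal protein probe was saturated. The probe for Rpl3l, the muscle paralog of Rpl3, was above background on 1 of 12 arrays, which left 77 genes among the 22750 detected probes that were tested.

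After scaling to the 75th percentile the ribosomal protein genes shifted upward together from array to array, by less than 2-fold. The median difference of the 77 genes from their BSA means was -0.03, 0.05 and -0.02 on the log2 scale in the 3 BSA samples. It was 0.12, 0.28 and 0.53 with Rspo2, 0.40, 0.50 and 0.55 with Wnt3a, and 0.54, 0.36 and 0.28 with the combination. All 9 treated samples lay above the 3 BSA samples, and the treated groups overlapped one another. The Rspo2 sample on the slide of the BSA samples was the lowest of the 9. The 655 other low-gain probes moved by similar amounts, with medians of -0.03 to 0.04 in the BSA group, 0.17 to 0.41 after Rspo2, 0.30 to 0.46 after Wnt3a and 0.24 to 0.46 after the combination. After quantile normalization, which gives every array the same distribution of values, the ribosomal protein medians fell between -0.02 and 0.01 with BSA, -0.03 and 0.10 with Rspo2, 0.04 and 0.09 with Wnt3a and 0.04 and 0.07 with the combination.

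**Figure D1:**
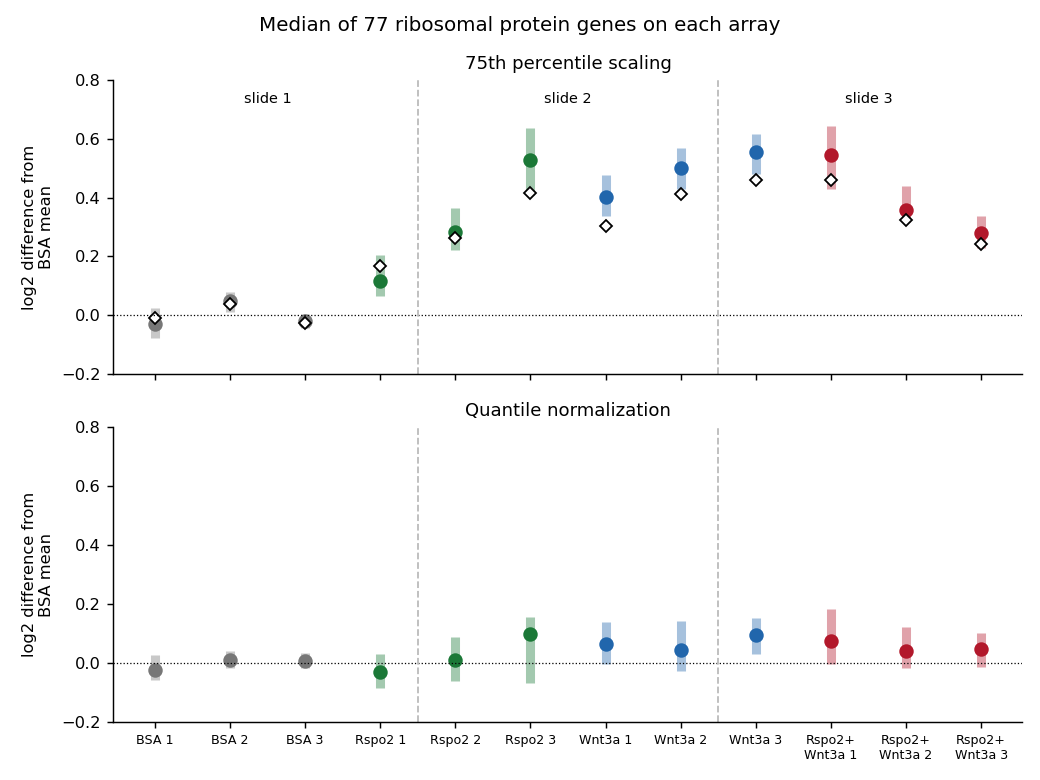
Median log2 difference of 77 ribosomal protein genes from their BSA means on each of the 12 arrays (points), with the quartiles of the genes as bars, after 75th percentile scaling (top) and quantile normalization (bottom); white diamonds in the top panel are medians of 655 other probes read at low gain, and dashed lines part the slides. The treated arrays reach 0.12 to 0.55 in the top panel, where the diamonds follow the points, and stay between -0.03 and 0.10 in the bottom panel.

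Wnt3a gave the widest response on the 75th percentile scale. Of the 77 genes, 71 rose and none fell, beside 18.3% of all detected probes called higher and 13.2% called lower (limma, Benjamini-Hochberg adjusted p under 0.05). Here and below, a count of genes that rose or fell counts those that passed this test. The median log2 change was 0.48, with quartiles of 0.41 and 0.55, against -0.00 for all detected probes and 0.38 for the other low-gain probes, of which 68.4% were called higher. None reached 2-fold. Rps15a had the largest change, at 0.65 ± 0.14 (SE, limma adjusted p = 0.00624), followed by Rps19, which is mutated in Diamond-Blackfan anaemia, at 0.63 ± 0.15 (adjusted p = 0.00941), and Rps27l at 0.62. Rpl21, Rps4x and Rps18 had the smallest, at 0.10, 0.24 and 0.27, and did not pass. In 74 of the 77 genes every Wnt3a sample lay above every BSA sample, which held for 25.9% of all detected probes. The split of 71 higher and 0 lower became 5 and 0 after quantile normalization, with a median of 0.07, and 3 and 1 after cyclic loess, with a median of 0.03. Quantile normalization called 14.1% of all detected probes higher and 9.85% lower, and cyclic loess 11.8% and 10.5%. No gene was called once slide was a term of the fit, when the median was 0.16. That fit called 0.189% of all detected probes higher and 0.607% lower.

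Rspo2 alone gave fewer calls. On the 75th percentile scale 21 genes rose and none fell, beside 10.9% of all detected probes called higher and 5.93% called lower, and the median log2 change was 0.32 against 0.01 for all detected probes and 0.29 for the other low-gain probes. Of those, 32.2% were called higher, a larger share than 21 of 77. The largest changes were those of Rpsa, at 0.54 ± 0.11 (SE, limma adjusted p = 0.017), Rpl28, at 0.48 ± 0.16, which did not pass (adjusted p = 0.0616), and Rpl6, at 0.47 ± 0.10 (adjusted p = 0.0176). Rpl30 was the only gene with a change below 0, at -0.08, and it rested on Rspo2 replicate 2, at 5.53 against 6.08 in both other Rspo2 samples and 5.93 to 6.05 with BSA. Rpl21 and Rps27a followed at 0.10 and 0.11. In 62 of the 77 genes every Rspo2 sample lay above every BSA sample, which held for 26.3% of all detected probes. The calls depended on single arrays. Without Rspo2 replicate 1, the sample that shares a slide with BSA, 48 genes were called. There were 7 without combination replicate 2 and 12 without Wnt3a replicate 2. Without BSA replicate 1, 2 or 3 or Rspo2 replicate 2 or 3 there were 0 to 2. The shares of all detected probes called in these fits are not given here. Whether the swings were particular to the ribosomal protein genes was not tested. Within slide 1 the Rspo2 sample exceeded the BSA mean by a median of 0.12, and 76 of 77 genes were higher there. With slide in the fit no gene was called and the median was 0.12. That fit called 0.136% of all detected probes higher and 0.295% lower. After quantile normalization the split of 21 higher and 0 lower became 2 and 0 with a median of 0.01, and after cyclic loess 0 and 0 with a median of -0.03. Quantile normalization called 6.72% of all detected probes higher and 5.35% lower, and cyclic loess 4.59% and 4.81%.

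With both proteins 65 genes rose and none fell on the 75th percentile scale, beside 21.9% of all detected probes called higher and 17.3% called lower. The median log2 change was 0.40, against 0.04 for all detected probes and 0.35 for the other low-gain probes. Rpl37a rose by 0.63 ± 0.10 (SE, limma adjusted p = 0.000784), Rpl13a by 0.58 ± 0.12 (adjusted p = 0.00359) and Rpsa by 0.55 ± 0.11 (adjusted p = 0.00262). These 3 also passed after quantile normalization, at 0.30, 0.26 and 0.18, but not after cyclic loess, at 0.20, 0.17 and 0.15 (limma adjusted p = 0.0612, 0.0901 and 0.0863), nor with slide in the fit, at 0.29, 0.22 and 0.24. The smallest changes were those of Rpl21, at -0.01, Rpl13, at 0.13, and Rps4x, at 0.21, none of which passed. In 75 genes every combination sample lay above every BSA sample, which held for 30.9% of all detected probes. The split of 65 higher and 0 lower became 7 and 1 after quantile normalization and 2 and 1 after cyclic loess, where the median was -0.01. Quantile normalization called 19.6% of all detected probes higher and 16.9% lower, and cyclic loess 16.8% and 18.2%. With slide in the fit no gene was called and the median was 0.02, with 42 genes higher and 35 lower. That fit called 0.809% of all detected probes higher and 1.71% lower. The count was 39 without BSA replicate 1, 33 without BSA replicate 3, 27 without combination replicate 1 and 38 without combination replicate 2. It was 12 without both arrays of low spike-in slope. For these fits too the shares of all detected probes called are not given, so the swings cannot be read as particular to these genes.

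**Figure D2:**
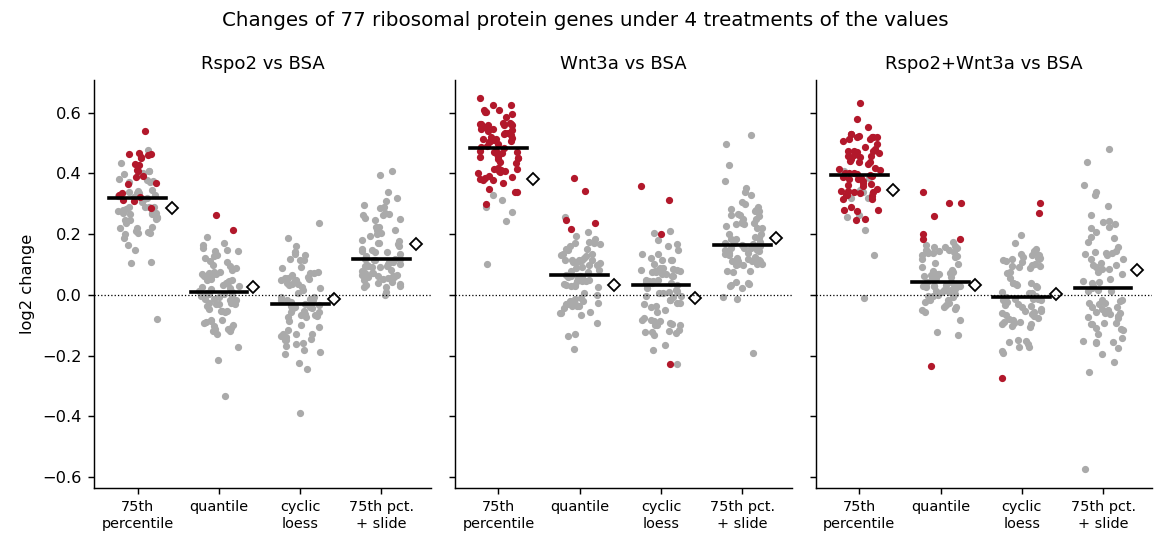
Log2 change of each of 77 ribosomal protein genes (points; red, limma adjusted p under 0.05) in the 3 comparisons with BSA under 75th percentile scaling, quantile normalization, cyclic loess, and 75th percentile scaling with slide as a term; black lines are medians of the genes and white diamonds medians of 655 other low-gain probes. The medians of 0.32, 0.48 and 0.40 on the left of each panel fall to 0.01, 0.07 and 0.04 after quantile normalization and to -0.03, 0.03 and -0.01 after cyclic loess.

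Rspo2 together with Wnt3a was then set against Wnt3a alone. None of the 77 passed against Wnt3a alone in limma, where 1.78% of all detected probes were called higher and 2.49% lower. None had an unadjusted p under 0.05, against 18.4% of all detected probes; the plain t-test of the study's methods found 3 at an unadjusted p under 0.05. The median change was -0.09, and 63 of the 77 values were below 0. Rpl13 and Rpl38 were lowest, both at -0.24. Rps6, the small subunit protein that S6 kinase phosphorylates, was highest at 0.19, ahead of Rpl4 at 0.18 and Rpl24 at 0.08. Within slide 3, the combination samples lay below Wnt3a replicate 3 by a median of 0.16, with 4 of 77 genes higher.

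The interaction term asks whether Rspo2 changed expression by a different amount in the presence of Wnt3a than in its absence. Its median was -0.40 on the log2 scale, so that the combination stood below the sum of the separate changes, and it was -0.32 for the other low-gain probes. Cyclic loess turned the sign of the median, to 0.02. On the 75th percentile scale 5 genes were called lower and none higher, beside 5.31% of all detected probes called lower and 3.58% called higher, so the share of the genes was near that of all probes. Rpl38, Rpsa, Rpl6 and Rpl27a were among them. Rps19 had a value of -0.63 and did not pass, and Rpl30, Rps27a and Rps6 stood at the other end with 0.11, -0.07 and -0.10. The count was 34 without Rspo2 replicate 1, 13 without combination replicate 1, 3 and 4 without Wnt3a replicates 3 and 1, and 0 to 2 without any other array. Shares of all detected probes called without these arrays are not given, so whether the swings were particular to these genes was not tested. None of the 77 was called after quantile normalization, after cyclic loess or with slide in the fit. Of all detected probes these fits called 4.02%, 3.87% and 0.36% lower and 2.44%, 2.49% and 0.382% higher.

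Both subunits gave similar medians. The 32 small subunit genes had medians of 0.30 with Rspo2, 0.46 with Wnt3a and 0.39 with the combination, and the 45 large subunit genes 0.33, 0.49 and 0.40. With Wnt3a all values were above 0, and 29 of 32 and 42 of 45 genes were called higher, beside 18.3% of all detected probes. These are values on the 75th percentile scale, and the difference between the subunits was not tested.

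A few genes kept a call when the scaling was changed. Rpl14 and Rpl31, large subunit proteins whose probes were read at high gain on all arrays, were singled out after their values were seen. Rpl14 read 1.75, 1.72 and 1.66 with BSA, 1.93, 1.94 and 2.12 with Rspo2, 2.15, 2.16 and 2.24 with Wnt3a, and 2.19, 2.10 and 2.09 with the combination, as log2 intensity over the 75th percentile. The 3 treated groups lay wholly above BSA. With Wnt3a it rose by 0.47 ± 0.08 (SE, limma adjusted p = 0.00175), and it also passed after quantile normalization, at 0.34 (adjusted p = 0.00479), and cyclic loess, at 0.31 (adjusted p = 0.00809). Rpl31 read 1.79, 1.81 and 1.81 with BSA, 2.02, 2.14 and 2.37 with Rspo2, 2.29, 2.35 and 2.35 with Wnt3a, and 2.34, 2.25 and 2.20 with the combination. Its change with Wnt3a was 0.53 ± 0.09 (SE, limma adjusted p = 0.00236), 0.39 after quantile normalization and 0.36 after cyclic loess, which all passed. Both genes also passed with the combination under these 3 scalings, at 0.27 to 0.46. With Rspo2 both passed on the 75th percentile scale, at 0.29 and 0.37, and neither did after cyclic loess. After quantile normalization Rpl31 passed (limma adjusted p = 0.0499) and Rpl14 did not (adjusted p = 0.0728). With slide in the fit Rpl14 and Rpl31 kept their direction with Wnt3a, at 0.34 and 0.28, and with the combination, at 0.22 and 0.19, and did not pass. Neither passed after normexp background correction.

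The brightest probes of the other 2 detected genes read at high gain did not keep a call after quantile normalization. Rpl27a, at 3.70 to 3.87 with BSA and 4.19 to 4.37 with Wnt3a, rose by 0.47 ± 0.08 on the 75th percentile scale (SE, limma adjusted p = 0.00189) but by 0.21 after quantile normalization, which did not pass (adjusted p = 0.071). The brightest Rpl21 probe ranged from 0.72 to 1.01 with BSA and from 0.74 to 1.21 over the treated samples, so its groups overlapped. Further high-gain probes of both genes, singled out after their values were seen, behaved otherwise. That of Rpl21 listed under NM_019647 read -0.82, -0.72 and -0.71 with BSA and between -0.54 and -0.10 in the treated samples, without overlap. Its changes of 0.35, 0.51 and 0.60 with Rspo2, Wnt3a and the combination passed (limma adjusted p = 0.0231, 0.00178 and 0.000334), and so did the values of 0.38, 0.56 and 0.64 after quantile normalization and of 0.36, 0.53 and 0.60 after cyclic loess. That of Rpl27a listed under AK138110 changed by 0.68, 0.72 and 0.75, by 0.66, 0.70 and 0.73 after quantile normalization and by 0.63, 0.67 and 0.70 after cyclic loess, which all passed. With slide in the fit neither probe passed in any of the 3 comparisons.

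The brightest probe of Rpl13 stood out in the opposite direction. It read 7.16, 7.20 and 7.05 with BSA and 7.42, 7.24 and 7.13 with the combination, while Wnt3a alone gave 7.36, 7.59 and 7.55. Its change with the combination was 0.13 ± 0.11 on the 75th percentile scale, which did not pass, but -0.24 after quantile normalization (limma adjusted p = 0.0189) and -0.27 after cyclic loess (adjusted p = 0.0106). A further Rpl13 probe, also read at low gain, had -0.18 and -0.17 under these 2 scalings and did not pass (limma adjusted p = 0.126 and 0.13). The high-gain Rpl13 probe listed under BC083148 had 0.18 and 0.16, which did not pass. Rps4x, the X-linked small subunit protein, had 0.24 with Wnt3a on the 75th percentile scale, -0.18 after quantile normalization, which did not pass (limma adjusted p = 0.0908), and -0.23 after cyclic loess, where it passed (adjusted p = 0.0405). Both genes gained less than most others on the first scale.

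**Figure D3:**
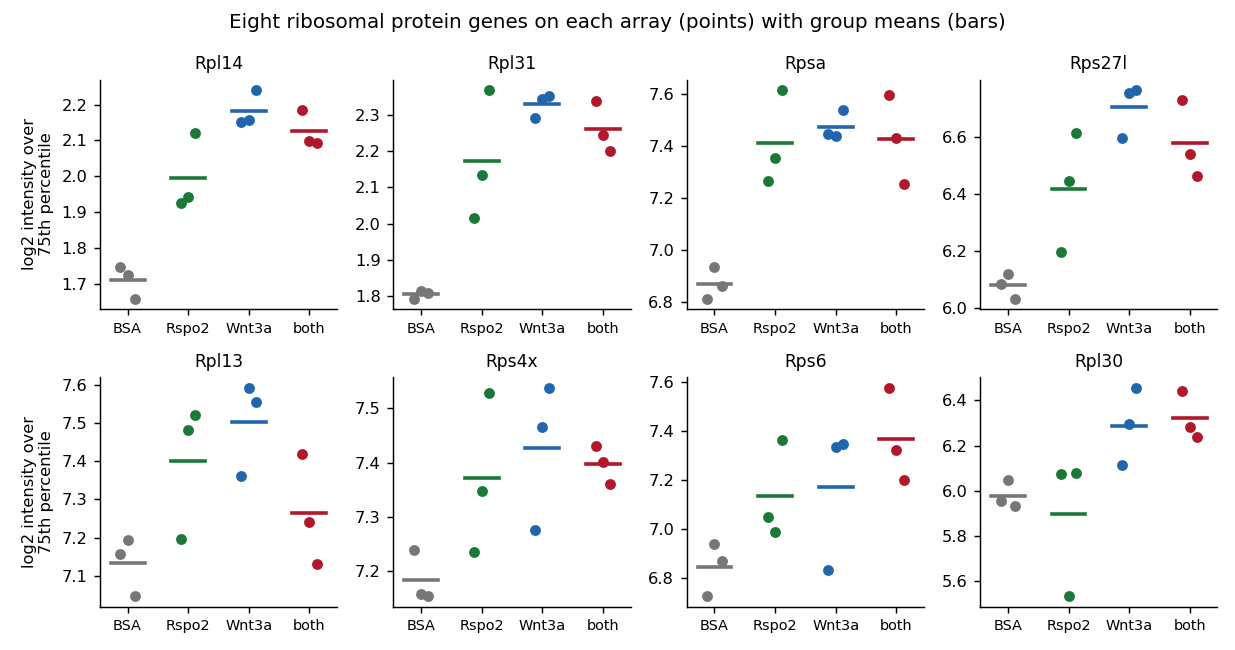
Log2 intensity over the array's 75th percentile of 8 ribosomal protein genes in each of the 12 samples (points, replicates 1 to 3 from left to right) with group means (bars), where both stands for Rspo2 with Wnt3a. Every treated sample of Rpl14, Rpl31, Rpsa and Rps27l lies above the BSA samples, 1 Wnt3a sample of Rps6 lies within the BSA range, the combination overlaps BSA in Rpl13, and 1 Rspo2 sample of Rpl30 lies at 5.53.

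The acidic stalk of the large subunit, which recruits the elongation factors, is built from Rplp0, Rplp1 and Rplp2. Rplp0 read 6.04, 6.21 and 6.12 with BSA, 6.44, 6.51 and 6.77 with Rspo2, 6.41, 6.48 and 6.67 with Wnt3a and 6.65, 6.44 and 6.24 with the combination, so that no treated sample overlapped BSA. It rose with Rspo2 by 0.45 and with Wnt3a by 0.39 on the 75th percentile scale, and after quantile normalization the 2 values were 0.13 and -0.01. Rplp1 rose with Wnt3a, at 0.34, and Rplp2 with Wnt3a and the combination, at 0.41 and 0.25, on that scale, and these values turned to -0.01, -0.03 and -0.06 after quantile normalization.

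Rpl5 and Rpl11 reach the ribosome together with its smallest ribosomal RNA and, when free, bind the p53 regulator Mdm2. Rpl5 lay at 6.68 to 6.78 in BSA samples, and rose to 6.96 to 7.25 after Rspo2, 7.12 to 7.29 after Wnt3a and 7.13 to 7.36 after the combination. Its changes of 0.33, 0.45 and 0.51 all passed on the 75th percentile scale. Those of Rpl11 were 0.27, which did not pass, 0.42 and 0.31. None of these 6 values of the brightest probes passed after quantile normalization, where they lay between -0.05 and 0.15. A further high-gain probe of Rpl11, listed under AK014593, behaved otherwise. After quantile normalization it passed with Wnt3a, at 0.48 (limma adjusted p = 0.00187), and with the combination, at 0.53 (adjusted p = 0.000384). With Rspo2 it had 0.12 and did not pass. Cyclic loess left 0.46 and 0.51, which passed, and with slide in the fit it did not pass.

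Rpsa, a small subunit protein also known as the laminin receptor precursor, was among the 3 largest changes with Rspo2 and with the combination. It read 6.81, 6.93 and 6.86 with BSA, 7.27, 7.35 and 7.61 with Rspo2, 7.45, 7.44 and 7.54 with Wnt3a and 7.59, 7.43 and 7.25 with the combination. After quantile normalization its changes with Rspo2 and the combination still passed, at 0.21 (limma adjusted p = 0.0495) and 0.18 (adjusted p = 0.0402). After cyclic loess neither passed, at 0.19 and 0.15.

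Rps6 was one of the most variable genes. It read 6.72, 6.94 and 6.87 with BSA, 7.05, 6.99 and 7.36 with Rspo2, 6.83, 7.33 and 7.35 with Wnt3a, and 7.57, 7.32 and 7.20 with the combination. Wnt3a replicate 1 lay within the BSA range. Only the change with the combination passed, at 0.52 ± 0.16 (SE, limma adjusted p = 0.0236), and after quantile normalization it was 0.15. Rps27a, which is made as a fusion with ubiquitin, varied least within groups, with a pooled SD of 0.064 against a median of 0.139 over the 77 genes and 0.152 over all detected probes. It rose by 0.30 with Wnt3a and 0.34 with the combination on the 75th percentile scale, values that became -0.14 and -0.02 after quantile normalization.

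The remaining genes named for their roles rose with Wnt3a and with the combination on the 75th percentile scale. These were Rpl10, which joins the large subunit late in its assembly, at 0.54 and 0.52, Rpl13a, often used as a reference gene, at 0.54 and 0.58, Rps3, which lines the entry of the messenger channel, at 0.38 and 0.25, and Rpl22 at 0.61 and 0.47. Quantile normalization left 0.11 and 0.16, 0.11 and 0.26, -0.06 and -0.12, and 0.22 and 0.12. Of these 8 values, those of Rpl13a with the combination and of Rpl22 with Wnt3a passed (limma adjusted p = 0.0215 and 0.0476).

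Paralogs were compared where both had a probe. Rps27 read 6.57 to 6.66 with BSA and 7.18 to 7.27 with Wnt3a, and its change of 0.59 became 0.17 after quantile normalization, which did not pass. Rps27l, its p53-inducible paralog, read 6.08, 6.12 and 6.03 with BSA, 6.19, 6.44 and 6.61 with Rspo2, 6.59, 6.75 and 6.76 with Wnt3a and 6.73, 6.54 and 6.46 with the combination. Its change with Wnt3a was 0.62 ± 0.11 (SE, limma adjusted p = 0.00285) and it passed after quantile normalization, at 0.25 (adjusted p = 0.0172), and cyclic loess, at 0.20 (adjusted p = 0.04). The difference between the paralogs was not tested. Rpl3 rose with Wnt3a by 0.35 and with the combination by 0.39, and Rpl39 by 0.56 and 0.48, on the 75th percentile scale. After quantile normalization Rpl3 stood at -0.07 and 0.06 and Rpl39 at 0.19 and 0.18, of which the last passed (limma adjusted p = 0.0497). Rpl7 rose by 0.50 and 0.52 and Rpl7a, which is unrelated to it in spite of the name, by 0.40 and 0.33; after quantile normalization the values were 0.07, 0.14, -0.04 and -0.01. Ribosomal protein genes have many processed pseudogenes whose sequence is close to the messenger, and whether a probe also reads such copies was not tested.

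The changes past 2-fold came from probes that were not the brightest of their gene. For 36 genes 48 further probes were detected, with medians of 0.29 with Rspo2, 0.44 with Wnt3a and 0.43 with the combination. Of these, 15 rose and 3 fell with Rspo2, and 34 rose and 2 fell with Wnt3a and with the combination, beside 10.9%, 18.3% and 21.9% of all detected probes called higher and 5.93%, 13.2% and 17.3% lower. The 2 that fell with Wnt3a, of Rps13 and of Rps24, belonged to genes whose brightest probe rose.

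The further probe of Rps13, which the array lists under the messenger BC011192, read 0.00, -0.06 and -0.00 with BSA, -1.18, -1.11 and -0.87 with Rspo2, -0.94, -0.88 and -0.91 with Wnt3a, and -0.88, -1.005 and -1.005 with the combination. The 9 treated samples lay in a narrow band well below BSA and the treated groups overlapped. The changes were -1.03 ± 0.09, -0.89 ± 0.09 and -0.94 ± 0.09 (SE, limma adjusted p = 0.000247, 0.000149 and 2.26e-05). They also passed after quantile normalization, at -1.04, -0.85 and -0.93, and with slide in the fit, at -1.16, -1.07 and -1.13 (limma adjusted p = 0.0083, 0.0222 and 0.022). The brightest Rps13 probe read 7.12, 7.05 and 6.99 with BSA and 7.50, 7.66 and 7.64 with Wnt3a, and its change of 0.55 became 0.12 after quantile normalization, while its changes of 0.31 with Rspo2 and 0.39 with the combination turned to -0.04 and -0.01 after cyclic loess. In the coordinates of the array files, whose build is not given in the sources used here, the further probe spans 64 bases of chromosome 7, from 112247829 to 112247892, and the brightest one 60 bases from 112247757 to 112247816.

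The further probe of Rps24 listed under AK135247 read 1.20, 1.19 and 1.25 with BSA, 0.56, 0.61 and 0.57 with Rspo2, 0.45, 0.66 and 0.36 with Wnt3a, and 0.26, 0.39 and 0.23 with the combination. No treated sample overlapped BSA. The changes were -0.63, -0.72 and -0.92, each ± 0.09 (SE, limma adjusted p = 0.00422, 0.000438 and 2.53e-05), and after quantile normalization -0.69, -0.78 and -0.98. With slide in the fit they were -0.66, -0.69 and -0.76 and did not pass (limma adjusted p = 0.0555, 0.0875 and 0.0815). The array files place this probe at 22163190 to 22163249 of chromosome 14 and the brightest Rps24 probe across 22159843 to 22161168, a span of 1326 bases. A further Rps24 probe, listed under AK049387, rose by 0.40 with Wnt3a and 0.48 with the combination, so that the 3 probes of this gene gave both directions.

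Further probes of Rps12 and Rpl35a exceeded 2-fold with the combination. That of Rps12, listed under AK132208, read -0.41, -0.26 and -0.25 with BSA, 0.26, 0.12 and 0.46 with Rspo2, 0.52, 0.49 and 0.62 with Wnt3a, and 0.94, 0.69 and 0.65 with the combination. The 4 groups did not overlap, and the changes were 0.59, 0.85 and 1.07 (limma adjusted p = 0.0131, 0.00065 and 4.32e-05). Those of the Rpl35a probe listed under AK160963 were 0.75, 0.78 and 1.23 (limma adjusted p = 0.0152, 0.00359 and 0.000134). Quantile normalization left 0.60, 0.86 and 1.07 for Rps12 and 0.88, 1.00 and 1.40 for Rpl35a, all of which passed, and with slide in the fit none of the 6 passed. A further probe of Rpl13, listed under BC083148, fell by 0.35 with Rspo2 (limma adjusted p = 0.0234) and did so too after quantile normalization, at -0.33. Which transcripts these probes read was not tested.

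**Figure D4:**
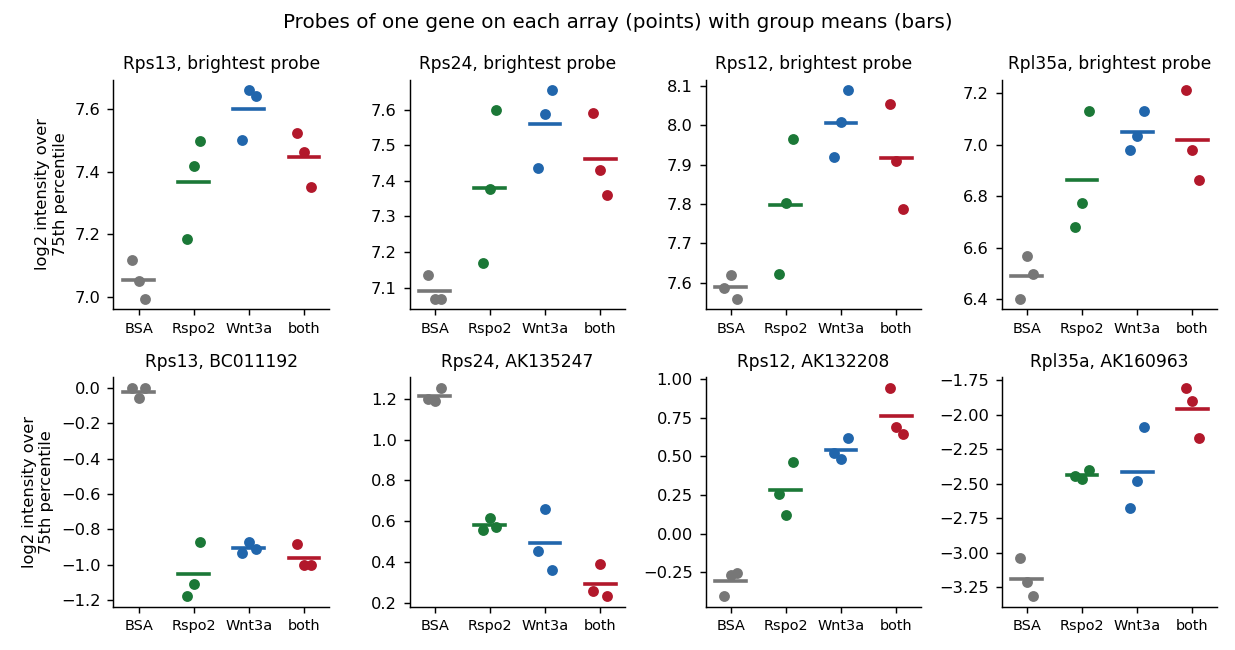
Log2 intensity over the array's 75th percentile for the brightest probe (top) and a further probe (bottom) of Rps13, Rps24, Rps12 and Rpl35a in each of the 12 samples (points) with group means (bars). The further probes of Rps13 and Rps24 fall with every treatment while those of Rps12 and Rpl35a rise, and neither direction turns after quantile normalization.

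Of the gene lists set beside the ribosomal protein genes, the mitochondrial ribosomal proteins, which are encoded in the nucleus, had the highest counts of calls after quantile normalization. Of 78 such genes 43 rose with Rspo2, 65 with Wnt3a and 61 with the combination on the 75th percentile scale, and 0, 0 and 1 fell, beside the 10.9%, 18.3% and 21.9% of all detected probes called higher. The medians were 0.34, 0.47 and 0.41 on that scale. After quantile normalization 12, 42 and 38 rose and 0, 0 and 2 fell, beside 6.72%, 14.1% and 19.6% of all detected probes called higher, with medians of 0.17, 0.28 and 0.22, beside medians of 0.01, 0.07 and 0.04 for the cytosolic genes. Only 9 of the 78 were read at low gain on all arrays. With slide in the fit none passed, at medians of 0.21, 0.26 and 0.18. That fit called 0.136%, 0.189% and 0.809% of all detected probes higher. Mrpl47 rose with the combination by 0.72 ± 0.11 (SE, limma adjusted p = 0.000779) and Mrpl35 by 0.67 ± 0.10 (adjusted p = 0.000524), while Mrps6 fell by 0.49 (adjusted p = 0.00963).

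Genes of ribosome biogenesis process ribosomal RNA and assemble the subunits. Of 66 detected genes 10 rose with Rspo2, 35 with Wnt3a and 43 with the combination, none fell, and quantile normalization left 4, 21 and 30 higher with 1, 0 and 0 lower. Among all detected probes 10.9%, 18.3% and 21.9% were called higher on the first scale and 6.72%, 14.1% and 19.6% after quantile normalization. The counts with Rspo2 were near these shares. With slide in the fit none passed, where 0.136%, 0.189% and 0.809% of all detected probes were called higher. Sbds, a factor of large subunit maturation, rose with the combination by 0.82 ± 0.15 (SE, limma adjusted p = 0.00163) and Brix1 by 0.68 ± 0.08 (adjusted p = 0.000105). Of 34 genes of RNA polymerases I and III, 6 rose and 2 fell with Rspo2, 7 and 0 with Wnt3a, and 12 and 1 with the combination, where 21.9% of all detected probes were called higher and 17.3% lower. With Rspo2 and Wnt3a these shares were 10.9% and 18.3% higher and 5.93% and 13.2% lower. With the combination the values included Taf1d at 0.68, Taf1b at 0.67 and Gtf3c1 at -0.65.

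Of 23 detected genes with other TOP messengers, 3 rose with Rspo2, 16 with Wnt3a and 12 with the combination. Beside them 10.9%, 18.3% and 21.9% of all detected probes were called higher, and the count with Rspo2 was near that share. Quantile normalization left 0, 1 and 1 higher and 0, 2 and 2 lower, with medians of -0.05, -0.03 and -0.05. It called 6.72%, 14.1% and 19.6% of all detected probes higher and 5.35%, 9.85% and 16.9% lower. The difference from the ribosomal protein genes was not tested. Btf3, part of the complex that meets nascent peptides, rose with the combination by 0.60, and Eef1g, a subunit of the elongation factor that delivers transfer RNA, by 0.45. After quantile normalization the first was 0.30 and passed, and the other was 0.07 and did not.

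Of 42 detected initiation factors, 23 rose and 1 fell with the combination, beside 21.9% of all detected probes called higher and 17.3% called lower. After quantile normalization 12 rose and 7 fell, beside 19.6% and 16.9% of all detected probes. The share that fell there was near that of all probes. Eif6, which keeps free large subunits from joining, rose by 1.21 ± 0.11 (SE, limma adjusted p = 2.27e-05) and by 0.92 after quantile normalization. Eif2s1, the subunit of the initiation factor that stress kinases phosphorylate, rose by 0.69, and Eif4ebp2, a repressor of cap binding, fell by 0.41 (limma adjusted p = 0.0448). Of 11 detected genes named as elongation factors 6 rose with the combination, and 1 did so after quantile normalization. The largest value was that of Eef1e1, at 0.91, which is listed by its name only. In a list of 9 ribosome-associated genes 7 rose, with Rsl1d1 at 0.73 and Rsl24d1 at 0.68, and quantile normalization left 4. For these lists too the shares of all detected probes called higher were 21.9% and 19.6%.

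Genes that control growth upstream of ribosome synthesis gave no common direction. Of 24 detected, 6 rose and 6 fell with the combination, beside 21.9% of all detected probes called higher and 17.3% called lower. After quantile normalization 4 rose and 9 fell, beside 19.6% and 16.9% of all detected probes. The share that fell on that scale was above that of all probes, a difference that was not tested. Deptor, an inhibitor of mTOR, had a log2 change of 0.00 ± 0.10 with Rspo2 (SE, not passing), fell by 0.70 with Wnt3a (limma adjusted p = 0.000977) and fell by 2.04 ± 0.10 with the combination (SE, adjusted p = 2.99e-07). Its change with the combination was -2.11 after quantile normalization and -2.25 with slide in the fit, where it also passed (limma adjusted p = 0.00263). Pdcd4, an inhibitor of initiation, fell by 0.78, and Mxd3, a partner of Max, and Eif4ebp1, another repressor of cap binding, rose by 0.56 and 0.54.

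**Figure D5:**
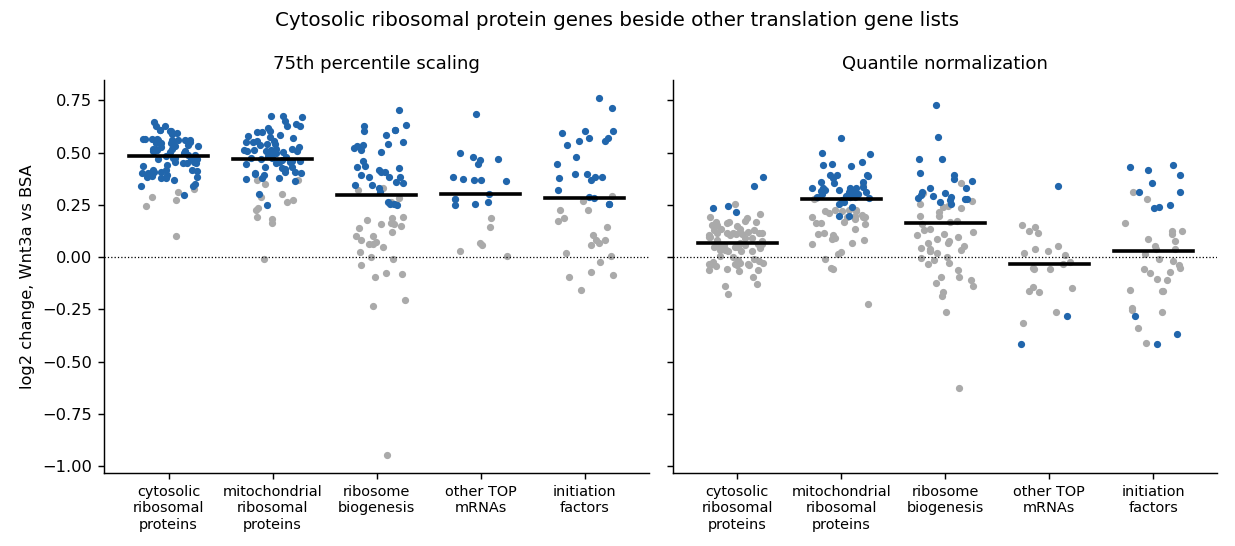
Log2 change with Wnt3a against BSA of single genes (points; blue, limma adjusted p under 0.05) and list medians (black lines) after 75th percentile scaling (left) and quantile normalization (right). The median of the cytosolic ribosomal protein genes goes from 0.48 to 0.07 and that of the mitochondrial ones from 0.47 to 0.28.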

How the data were processed

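Agilent Feature Extraction 9.5.3.1 was named in the submitters' processing notes, and the authors deposited its scanner files for 12 single-colour arrays of labelled cRNA, with processed intensity, mean intensity, background and flags per spot, and a series table of linear expression ratio values. The deposited ratio table lay within 1% of the values used here for 79.2% of values and within 5% for 97.5%. Array flags are deposited as other values of 0 or 1. Outlier spots were dropped, spots of a probe averaged, and log2 of processed intensity taken minus the array's 75th percentile. A probe was kept if some group had it above background on each of its 3 arrays. One limma model (limma 3.58.1, R 4.3.3) of the 4 groups gave 5 comparisons, with Benjamini-Hochberg adjustment over 22750 probes and calls at an adjusted p under 0.05 with no fold limit. The study's methods asked for 2-fold and a t-test, and both were tried as alternatives.

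The labels call the samples biological replicates, and the study states that every RNA came from its own cell monolayer. No column was left unmapped. The number of arrays limits precision. In a test on simulated data with independent noise, 67 of 22712 probes were given a log2 change of 0.5 in each comparison. Of these, 28.4% were recovered for Rspo2 against BSA, 34.3% for Wnt3a, 31.3% for the combination and 11.9% for the interaction. In the data many more probes were called, such as 18.3% higher with Wnt3a, which eases the adjusted cutoff. The simulated shares therefore do not describe how often changes of the genes above were recovered. Genes named were the 3 highest and 3 lowest in each comparison (one that this rule names is counted but not reported here), genes chosen by role or as paralogs, the 2 highest and 2 lowest called in each list with the combination, and genes whose probes disagreed. Rpl14, Rpl31 and the further probes of Rps12, Rpl35a, Rpl13, Rpl21, Rpl27a and Rpl11 were singled out after their values were seen. The genes and the lists were chosen with earlier results of these data known. RefSeq names came from 73 matched accessions. Current symbols merged older names in the lists. For Rpl23a 1 outlier value was missing on BSA replicate 2.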

Additional observations from a re-analysis of the deposited data

Results flagged for a closer look

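The interaction term of the limma fit was called below 0 on the 75th percentile scale for Rpl38, Rpsa, Rpl6 and Rpl27a. They were among 5 of the 77 genes called lower, a share near the 5.31% of all detected probes called lower. The median interaction was -0.40 for the 77 genes and -0.32 for the other low-gain probes. The values on the log2 scale were -0.63 for Rpl38 (adjusted p = 0.041), -0.59 for Rpsa (adjusted p = 0.0423), -0.57 for Rpl6 (adjusted p = 0.0317) and -0.52 for Rpl27a (adjusted p = 0.0206). All 4 rose with Rspo2 alone on the 75th percentile scale and had values of -0.24, -0.05, -0.10 and -0.16 when Rspo2 was added to Wnt3a, which did not pass. None of the 4 passed after quantile normalization, after cyclic loess or with slide in the fit.

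The interaction was also called for the further probe of Rps13, at 0.98 (limma adjusted p = 0.00187), and for that of Rps24, at 0.43 (adjusted p = 0.0497). Both fell with each protein alone and fell by less than the sum of these changes with the combination. The Rps13 value passed under all scalings but normexp background correction, which gave 0.83.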

How the results depend on the processing

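Of the 77 genes, 21, 71 and 65 were called with Rspo2, Wnt3a and the combination, 0 for the combination against Wnt3a and 5 for the interaction. In the same order where they moved, quantile normalization gave 2, 5 and 8 calls and 0 for the interaction, with medians of 0.0083, 0.0663, 0.0412 and -0.0206. Cyclic loess gave 0, 4, 3 and 0, with medians of -0.0313, 0.031, -0.0085 and 0.0188. Slide as a block gave 0 for all, with medians of 0.1164, 0.1649 and 0.0215 against BSA, and slide 1 alone gave 0.12 with Rspo2. Against BSA that block left 0.136%, 0.189% and 0.809% of all detected probes called higher and 0.295%, 0.607% and 1.71% lower. Normexp gave 0, 0, 1 and 0, with medians of 0.14 for Rspo2 and -0.24 for the interaction. The 75th percentile over probes above background on all arrays gave 7 with Rspo2 and 36 with the combination, no filter gave 0, 31 and, for the interaction, 0, and probes above background on all 12 arrays gave 8 for the interaction. Only the samples compared gave 2 with Rspo2, and a variance trend 34 with Rspo2 and 16 for the interaction. The methods' t-test gave 0, 36 and 12 after Benjamini-Hochberg and 3 unadjusted for the combination against Wnt3a, and the 2-fold limit gave 0 everywhere. Chosen after seeing the data, leaving out both arrays of low spike-in slope gave 0, 12 and 1 for Rspo2, the combination and the interaction. Also chosen so, the 18 genes with a detected high-gain probe gave 8, 11 and 12 calls. Of these 5, 9 and 10 were higher and 3, 2 and 2 lower. Their medians were 0.13 for Rspo2 and -0.21 for the interaction. Quantile normalization gave 6, 10 and 10, of which 3, 2 and 2 were lower, with 0.10, 0.18, 0.21 and -0.14. Cyclic loess gave 5, 9 and 10, of which 3, 2 and 2 were lower, with 0.0781, 0.1548, 0.1916 and -0.1145. Of all detected probes the 75th percentile scale called 10.9%, 18.3% and 21.9% higher and 5.93%, 13.2% and 17.3% lower. Quantile normalization called 6.72%, 14.1% and 19.6% higher, and cyclic loess 4.59%, 11.8% and 16.8%. Leaving out single arrays gave 0 to 48, 55 to 72, 27 to 70, 0 to 0 and 0 to 34 calls, with medians of 0.21 to 0.41, 0.44 to 0.53, 0.32 to 0.46, -0.15 to -0.03 and -0.49 to -0.28. The shares of all detected probes called are given only for the 75th percentile scale, quantile normalization, cyclic loess and the slide fit. Counts under the other settings therefore cannot be read as particular to these genes. The causes were not tested.

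Of the 21, 71 and 65 genes called with Rspo2, Wnt3a and the combination, 5, 27 and 29 turned sign after cyclic loess, 3, 17 and 10 after quantile normalization and 0, 1 and 25 with slide as a block. Among those named by rank, by role or as paralogs, the sign turned after cyclic loess with Rspo2 for Rpl37a (-0.0454) and Rpl5 (-0.0161). It turned with Wnt3a for Rpl11 (-0.0391), Rpl13 (-0.1009), Rpl24 (-0.0356), Rpl3 (-0.1217), Rpl5 (-0.008), Rpl7a (-0.0824), Rplp0 (-0.0297), Rplp1 (-0.1807), Rplp2 (-0.0837), Rps27a (-0.1664) and Rps3 (-0.0875). With the combination it turned for Rpl11 (-0.0772), Rpl3 (-0.0154), Rpl38 (-0.0519), Rpl7a (-0.09), Rplp2 (-0.1719), Rps27a (-0.0621) and Rps3 (-0.1569). After quantile normalization it turned with Wnt3a for Rpl13 (-0.0426), Rpl3 (-0.0664), Rpl7a (-0.0377), Rplp0 (-0.013), Rplp1 (-0.0091), Rplp2 (-0.0305), Rps27a (-0.1364) and Rps3 (-0.0554), and with the combination for Rpl11 (-0.0464), Rpl7a (-0.0065), Rplp2 (-0.0576), Rps27a (-0.0173) and Rps3 (-0.1224). With slide as a block it turned with the combination for Rpl24 (-0.0724), Rpl28 (-0.0595), Rpl38 (-0.0624), Rplp2 (-0.0309), Rps19 (-0.0955) and Rps3 (-0.0173).

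The replicate block gave 1, 62, 41, 0 and 0 calls. Deviations of samples with the same number correlated between -0.41 and 0.27 and those of other pairs between -0.40 and 0.43. These values showed no pairing by number but, with 3 samples in each group, cannot exclude it. No probe was saturated, so leaving out saturated probes changed nothing and has no value. The interaction has no plain t-test and no value within a slide.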
